A study of Homo sapiens with 6 samples.

Results

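The genes described here are 10 members of the insulin/IGF system of A549 cells. They are the IGF-binding proteins IGFBP2, IGFBP3, IGFBP4, IGFBP5, IGFBP6 and IGFBP7, the receptors IGF1R and INSR, and the receptor substrates IRS1 and IRS2. They were found by gene symbol in the 6 tables of the series, each symbol matched 1 row, and all 10 were among the 13181 genes with a TPM above 2 in at least 1 library, out of 53826 entries. TPM is a gene's share of all transcripts of a library after correction for transcript length, so levels of different genes can be compared.

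A549 cells are a permanent line grown from a human lung adenocarcinoma. RNA was sequenced from A549-TIPARP cells, which stably overexpress TIPARP from a pMXs retroviral vector, and from A549-GFP cells, which carry GFP in the same vector, with 3 libraries of each line. Whether a line is a single clone or a pool of transduced cells is not given in the sources used here, and no untransduced cells were among the samples. TIPARP is a mono-ADP-ribosyltransferase that the aryl hydrocarbon receptor (AHR) induces and that represses this receptor in turn.

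Insulin and the insulin-like growth factors IGF1 and IGF2 signal through the receptor tyrosine kinases INSR and IGF1R. The active receptor phosphorylates the docking proteins IRS1 and IRS2, which recruit PI3K and so switch on AKT and mTOR and keep FOXO transcription factors out of the nucleus. IGF-binding proteins are secreted, hold IGF1 and IGF2 in the medium, and are cut by proteases such as PAPPA, which sets the ligand free. Lung adenocarcinoma cells commonly secrete IGF-binding proteins and respond to IGF1 through IGF1R.

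Promoter sequences are shown for IRS1 and IRS2, whose ratio separated the lines, and for IGFBP3 and IGFBP4, the most abundant binding proteins, of which IGFBP3 took a share of the pool that did not overlap between the lines. They are the 250 bases before the RefSeq start of each gene (hg38, 5′ to 3′ on the strand of the gene), at chr2:226799821-226800070 on the minus strand, chr13:109786584-109786833 on the minus strand, chr7:45921273-45921522 on the minus strand and chr17:40443200-40443449 on the plus strand. Capitals mark the insulin response sequence TGTTTTG, which FOXO factors bind, the variant TATTTTG, the AHR core GCGTG and the TATA box TATAAA, each searched on either strand.
IRS1: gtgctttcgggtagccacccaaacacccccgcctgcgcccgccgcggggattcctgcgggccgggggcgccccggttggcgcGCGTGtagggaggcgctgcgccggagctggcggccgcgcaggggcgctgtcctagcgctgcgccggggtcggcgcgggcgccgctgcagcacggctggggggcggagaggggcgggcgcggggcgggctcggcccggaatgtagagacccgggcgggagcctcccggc
IRS2: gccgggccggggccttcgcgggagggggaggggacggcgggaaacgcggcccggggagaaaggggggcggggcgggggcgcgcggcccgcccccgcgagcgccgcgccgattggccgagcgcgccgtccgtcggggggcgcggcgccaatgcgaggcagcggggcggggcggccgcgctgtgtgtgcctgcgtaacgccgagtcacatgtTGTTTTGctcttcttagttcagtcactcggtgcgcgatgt
IGFBP3: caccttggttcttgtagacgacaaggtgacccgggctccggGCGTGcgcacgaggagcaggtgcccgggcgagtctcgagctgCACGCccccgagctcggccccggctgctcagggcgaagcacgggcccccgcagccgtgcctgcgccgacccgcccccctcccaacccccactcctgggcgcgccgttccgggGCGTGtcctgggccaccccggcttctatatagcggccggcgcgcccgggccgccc
IGFBP4: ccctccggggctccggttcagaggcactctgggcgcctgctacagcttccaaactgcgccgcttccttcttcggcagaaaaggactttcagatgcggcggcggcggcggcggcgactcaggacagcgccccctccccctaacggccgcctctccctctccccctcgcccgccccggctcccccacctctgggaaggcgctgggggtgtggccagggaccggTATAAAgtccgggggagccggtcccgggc

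The IRS2 window held 1 copy of TGTTTTG, 40 bases before the start, and no GCGTG. The IRS1 window held no insulin response sequence and 1 GCGTG, 168 bases before the start. IGFBP3 held 3 copies of GCGTG, at 209, 167 and 55 bases (that at 167 on the opposite strand, printed as its reverse complement), and IGFBP4 held 1 TATAAA, 29 bases before the start. Among members whose windows are not printed, IGF1R held 4 copies of GCGTG, and 1 of the 3 windows of IGFBP2 held 1. Those of IGFBP5, IGFBP6 and INSR held none. Among all 35116 RefSeq promoter windows of that length, 4.30% held TGTTTTG, 3.94% TATTTTG, 32.2% GCGTG and 10.7% TATAAA, and these motifs overlapped none of each other in the 4 windows printed. The GC content was 80.8% for IRS1, 76.4% for IRS2, 76.0% for IGFBP3 and 71.6% for IGFBP4, against a median of 58.0% for all windows. These are matches of letters, and binding was not measured. Of the 10 members 9 had a window, and IGFBP7 had none.

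The depth of the libraries is unknown, because TPM holds no record of read number and no counts were used, so no counting error is given. TPM below 1 had been set to 1 in the tables, and this value is called the floor. Where 3 values are given for a line, they follow replicates 1, 2 and 3. TIPARP itself was at 6.79, 11.4 and 3.68 TPM in the A549-GFP libraries and at 131, 90.5 and 123 TPM in the A549-TIPARP libraries, in accord with the labels of all 6 libraries; transcripts of the vector and of the cell's own gene are not told apart. All 10 epithelial and A549 markers were present, and their summed level ran from 22984 to 38925 TPM in A549-GFP cells, lowest in replicate 2, and from 34750 to 36920 TPM in A549-TIPARP cells. Among them, and named after their values were seen, KRT8 and KRT18 were at 3855 and 4176 TPM in A549-GFP replicate 2 and at 6959 TPM or more in every other library. KRT19, from 2.54 to 5.36 TPM in A549-GFP cells and from 10.9 to 19.2 TPM in A549-TIPARP cells, did not overlap (limma adjusted p = 0.283). Of the markers of other cell types, 5 of 5 endothelial genes and 5 of 7 fibroblast genes were at the floor in all libraries, and the summed fibroblast list ran from 7.09 to 7.44 TPM in A549-GFP cells and from 7.64 to 8.56 TPM in A549-TIPARP cells, near the sum of 7 floors. Of the leukocyte genes PTPRC and CD3E were at the floor in all libraries, while CD68 ran from 28.1 to 68.1 TPM in A549-GFP cells and from 25.0 to 36.04 TPM in A549-TIPARP cells, and LYZ from 3.14 to 5.95 TPM and from 4.49 to 7.25 TPM. The part of these markers in the results was not tested. A549-GFP replicate 2 stood apart, with a root mean square distance to its line's mean of 0.62 on the log2 scale, where the other libraries had from 0.19 to 0.40. Of the analysed genes, 52.0% were highest in it, and results are therefore also given without it.

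**Figure D1:**
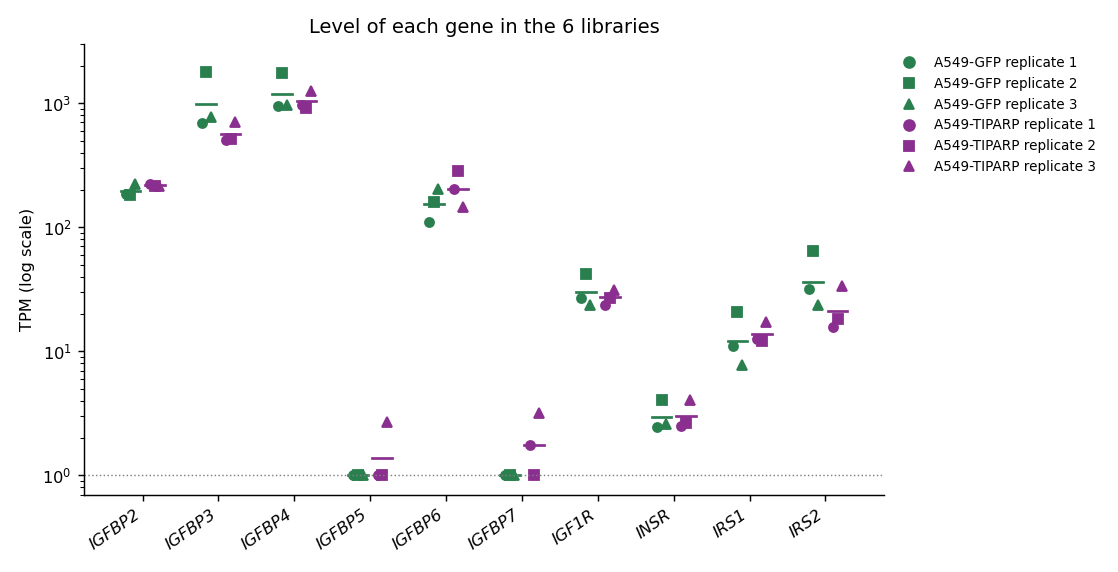
TPM (log axis) of the 10 genes in each library, with symbols for replicates and a horizontal line at the geometric mean of each line of cells; the dotted line is the floor of 1 TPM. IGFBP4 and IGFBP3 lay highest, with geometric means of 1104 and 748 TPM, IGFBP5 and IGFBP7 at or near the floor, and A549-GFP replicate 2 (green squares) was the highest library for 6 of the 10 genes.

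The plot of levels by library shows a wide range. IGFBP4 was the most abundant of the 10 transcripts, with a geometric mean over the 6 libraries of 1104 TPM, followed by IGFBP3 at 748 TPM, IGFBP2 at 207 TPM and IGFBP6 at 176 TPM. IGFBP4 stood above IGFBP3 in 5 of 6 libraries, and IGFBP2 above IGFBP6 in 5 of 6, while IGFBP3 was above IGFBP2 in 6 of 6. The receptor IGF1R followed at 28.5 TPM and IRS2 at 27.8 TPM, with IRS2 the lower of the pair in 3 of 6 libraries, so that their order was not resolved. IRS1 was at 13.0 TPM and INSR at 2.98 TPM. The ligand genes IGF1, IGF2 and INS were at the floor in all 6 libraries.

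None of the 10 genes passed the test between the lines. With limma on log2(TPM + 1) and Benjamini-Hochberg adjustment over the 13181 genes, 0 of 10 had an adjusted p-value under 0.05, a share that was 0.0152% among all analysed genes (2 genes). At an unadjusted p-value under 0.05 there was 1 of 10, IGFBP3, beside 3.85% of all genes. No member was more than 2-fold higher (1.53% of all genes) or more than 2-fold lower (0.432%) in A549-TIPARP cells, and the libraries of the lines overlapped for all 10, while they did not overlap for 8.91% of all genes. The median log2 fold change of the members was 0.08, beside -0.07 for all genes, but it includes IGFBP5 and IGFBP7, which passed the filter through A549-TIPARP replicate 3. The other 8 members, those above 2 TPM in 3 or more libraries, had a median of -0.06, the same as all genes under that filter, with 4 higher in mean and 4 lower. The titles number the libraries of a line as experiments 1 to 3, but do not say whether these were separate cultures. If they were not, the p-values measure a spread that may be technical.

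**Figure D2:**
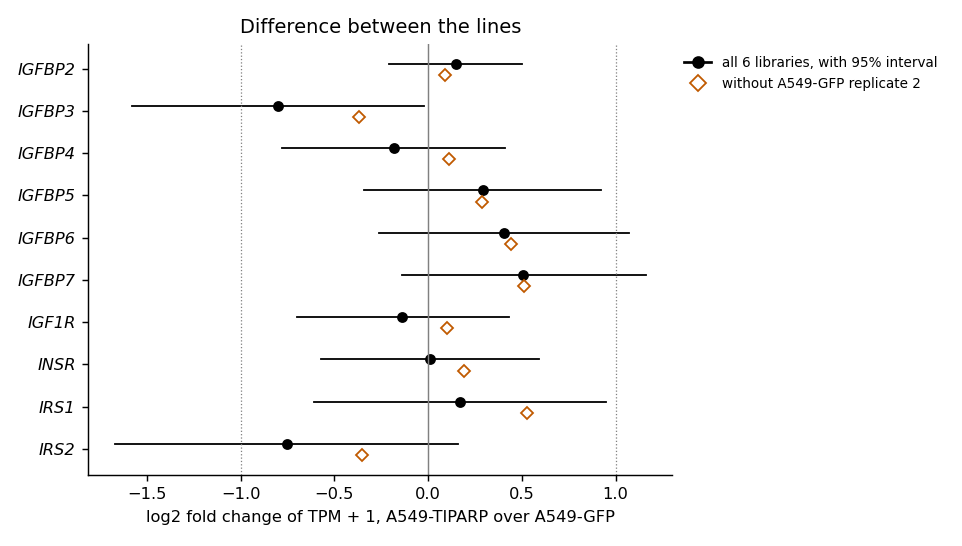
log2 fold change of TPM + 1 of each gene, A549-TIPARP over A549-GFP, with the 95% interval from limma (black) and the same value without A549-GFP replicate 2 (open diamonds); dotted lines mark 2-fold. IGFBP3 and IRS2 lay farthest below 0, at -0.80 and -0.75, and moved to -0.37 and -0.35 without that library.

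IGFBP3, the main carrier of IGFs in blood and also known as a growth inhibitor that acts on cells directly, was the binding protein with the largest difference among those well above the floor when all 6 libraries were used, and IGFBP6 was without A549-GFP replicate 2. Its TPM was 694, 1795 and 773 in the A549-GFP libraries and 503, 514 and 703 in the A549-TIPARP libraries. The A549-TIPARP libraries were the low ones, but A549-TIPARP replicate 3 stood just above A549-GFP replicate 1. The mean log2 TPM was 9.95 ± 0.75 (SD, n = 3) in A549-GFP cells and 9.15 ± 0.27 (SD, n = 3) in A549-TIPARP cells, 1.74-fold lower. In limma's fit of log2(TPM + 1) this was -0.80 (standard error 0.34, 95% interval -1.58 to -0.02, adjusted p = 0.994). With A549-GFP replicate 2 left out it was -0.37 (limma adjusted p = 0.525), and the unadjusted p-value was then above 0.05, as it was in 4 of the 9 alternative settings that kept all libraries. Among these 9, fold changes on log2(TPM + 1) and arithmetic means kept the main p-value by design. The IGFBP3 gene has 5 exons in its canonical GENCODE 44 transcript and spans chr7:45912245-45921874 of hg38, minus strand. The promoter window printed above lies inside this span, since GENCODE 44 begins the gene farther upstream than the RefSeq start used.

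IGFBP4, which in most settings inhibits IGF action and is the classical substrate of PAPPA, differed between the lines by less than the spread of the replicates. Its TPM was 948, 1764 and 973 in the A549-GFP libraries and 974, 906 and 1261 in the A549-TIPARP libraries. The libraries overlapped, and A549-GFP replicate 2 was again the highest. The difference in log2(TPM + 1) was -0.18 (95% interval -0.78 to 0.41, limma adjusted p = 0.994), which turned to 0.11 with that library left out.

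IGFBP2, a binding protein that is often raised in tumors, was the steadiest of the 8 genes that were above the floor in all libraries, with SDs of log2 TPM of 0.17 and 0.03. Its TPM was 186, 181 and 225 in the A549-GFP libraries and 223, 214 and 215 in the A549-TIPARP libraries. It was the only member for which A549-GFP replicate 2 was the lowest library. The log2 fold change was 0.15 (95% interval -0.21 to 0.50, limma adjusted p = 0.994).

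IGFBP6, which prefers IGF2 over IGF1, was higher in mean in A549-TIPARP cells. Its TPM was 110.4, 159 and 203 in the A549-GFP libraries and 204, 282 and 146 in the A549-TIPARP libraries. A549-TIPARP replicate 3 was here the lowest of its line. It was the highest A549-TIPARP library for 8 of the 10 members (35.5% of all analysed genes), but for IGFBP5 and IGFBP7 the filter fixed this, which leaves 6 of 8. The mean log2 TPM was 7.26 ± 0.44 (SD, n = 3) and 7.67 ± 0.48 (SD, n = 3), a log2 fold change on log2(TPM + 1) of 0.41 (standard error 0.29, 95% interval -0.26 to 1.07, limma adjusted p = 0.994). The difference was within the spread between replicates, and on the deposited scale it was 0.17 without A549-GFP replicate 1 or A549-TIPARP replicate 2, 0.61 without A549-GFP replicate 3 and 0.65 without A549-TIPARP replicate 3.

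IGFBP5, a matrix-bound binding protein, and IGFBP7, a low-affinity member of the wider family, were at the floor in most libraries. IGFBP5 was at the floor in 5 libraries and at 2.68 TPM in A549-TIPARP replicate 3. IGFBP7 was at the floor in A549-TIPARP replicate 2 and in each A549-GFP library, and at 1.75 and 3.19 TPM in A549-TIPARP replicates 1 and 3. These genes entered the analysed set through A549-TIPARP replicate 3 alone, so their fold changes, which are plotted and counted with the others, are not read as results. Their limma adjusted p-values were 0.994. The gene body of IGFBP7 overlaps POLR2B and IGFBP7-AS1 on the other strand, that of IGFBP5 overlaps DIRC3-AS1, that of IGF1R overlaps SYNM-AS1, and IRS2 overlaps an antisense gene without a name. The libraries were made with a stranded kit, but whether the counting used strand is not given in the sources used here.

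Among the binding proteins, IGFBP3 had a smaller share in each A549-TIPARP library than in any A549-GFP library. Of the summed TPM of the 6 binding proteins, IGFBP3 took 35.8%, 46.0% and 35.5% in the A549-GFP libraries and 26.4%, 26.8% and 30.2% in the A549-TIPARP libraries. The highest A549-TIPARP share lay below the lowest A549-GFP share, although the levels of IGFBP3 themselves overlapped. The mean share was 39.1% ± 5.97 (SD, n = 3) in A549-GFP cells and 27.8% ± 2.08 (SD, n = 3) in A549-TIPARP cells, a difference of -11.3 percentage points (exact permutation test, two-sided, p = 0.1, the smallest value this test can give with 3 libraries against 3). Without A549-GFP replicate 2 the difference was -7.88 points. The share of IGFBP4 was 46.3% ± 2.25 (SD, n = 3) and 50.8% ± 3.44 (SD, n = 3), that of IGFBP6 6.37% ± 2.69 (SD, n = 3) and 10.5% ± 4.22 (SD, n = 3), and that of IGFBP2 8.19% ± 3.09 (SD, n = 3) and 10.7% ± 1.30 (SD, n = 3). The libraries of the lines overlapped for the shares of IGFBP4, IGFBP6 and IGFBP2. IGFBP5 and IGFBP7 took at most 0.115% and 0.137% of the pool. Their shares did not overlap between the lines either, with the same permutation p-value, but 5 of the 6 values of IGFBP5 and 4 of the 6 of IGFBP7 are the floor divided by the pool.

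**Figure D3:**
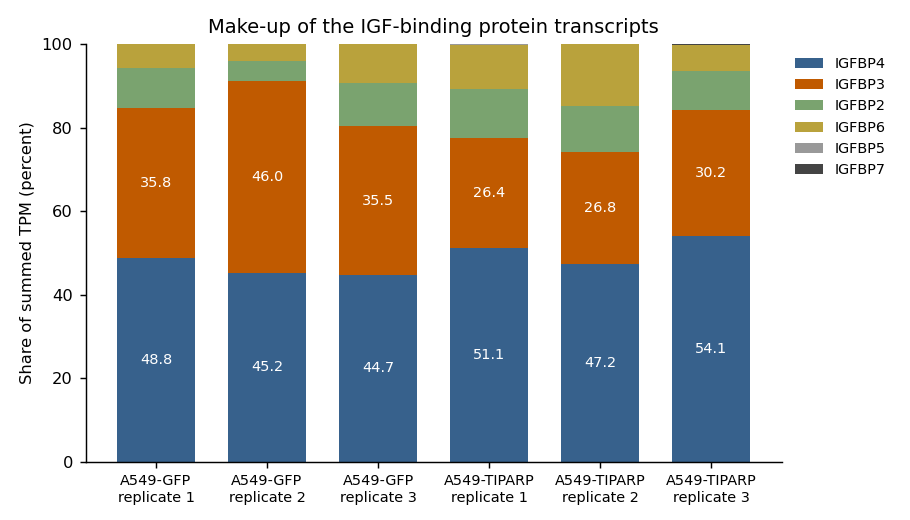
Share of each binding protein in the summed TPM of the 6 binding proteins, 1 bar per library, in percent, with the values of IGFBP4 and IGFBP3 printed. IGFBP3 ranged from 35.5% to 46.0% in A549-GFP libraries and from 26.4% to 30.2% in A549-TIPARP libraries.

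The pool as a whole was of a like size outside A549-GFP replicate 2. The 6 binding proteins summed to 1941, 3902 and 2176 TPM in the A549-GFP libraries and to 1907, 1918 and 2332 TPM in the A549-TIPARP libraries. A549-GFP replicate 2 thus held more binding protein transcripts than any other library, through IGFBP3 and IGFBP4.

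IGFBP1, the family member outside the set and a classical insulin-repressed FOXO target, followed the same library. Its TPM was 55.6, 579 and 136 in the A549-GFP libraries and 43.9, 62.5 and 115 in the A549-TIPARP libraries. The log2 fold change between the lines on the deposited scale was -1.26, past 2-fold, but on log2(TPM + 1) the 95% interval ran from -2.94 to 0.43 (limma adjusted p = 0.994), and leaving out A549-GFP replicate 2 gave -0.35 on the deposited scale. IGFBP1 and IGFBP3 are neighbors on chromosome 7, with 18584 bases and no other protein-coding gene between them. With IGFBP1 counted in the pool, IGFBP3 took 34.8%, 40.1% and 33.4% in A549-GFP libraries and 25.8%, 25.9% and 28.8% in A549-TIPARP libraries, so its share still did not overlap. IGFBP2 and IGFBP5 are neighbors in the same way on chromosome 2, 7668 bases apart, with IGFBP2 at 181 TPM or more and IGFBP5 at or near the floor.

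For both receptors the difference between the lines was within the spread of the replicates. IGF1R, the receptor of IGF1 and IGF2, was at 27.0, 42.0 and 23.8 TPM in the A549-GFP libraries and at 23.7, 26.9 and 31.5 TPM in the A549-TIPARP libraries. The difference in log2(TPM + 1) was -0.14 (95% interval -0.70 to 0.43, limma adjusted p = 0.994) and turned to 0.10 with A549-GFP replicate 2 left out. INSR, the insulin receptor, was at 2.48, 4.06 and 2.58 TPM in the A549-GFP libraries and at 2.52, 2.63 and 4.04 TPM in the A549-TIPARP libraries. For INSR the high library of each line, A549-GFP replicate 2 and A549-TIPARP replicate 3, stood at nearly the same level. On log2(TPM + 1) the difference was 0.01 (95% interval -0.57 to 0.59, limma adjusted p = 0.998).

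INSR transcripts were far fewer than those of IGF1R in every library. The ratio of INSR to IGF1R TPM was 0.0917, 0.0966 and 0.108 in the A549-GFP libraries and 0.106, 0.0979 and 0.128 in the A549-TIPARP libraries. On the log2 scale the mean ratio was -3.34 ± 0.12 (SD, n = 3) and -3.18 ± 0.20 (SD, n = 3), and the libraries overlapped (exact permutation test, two-sided, p = 0.4).

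IRS2, a substrate of INSR and IGF1R whose gene is induced by FOXO when insulin signaling is low, was lower in mean in A549-TIPARP cells, and IRS1 was not. IRS2 was at 31.9, 64.7 and 23.4 TPM in the A549-GFP libraries and at 15.7, 18.1 and 33.7 TPM in the A549-TIPARP libraries. The lines overlapped through A549-TIPARP replicate 3. The mean log2 TPM was 5.19 ± 0.75 (SD, n = 3) and 4.41 ± 0.58 (SD, n = 3), 1.72-fold lower in A549-TIPARP cells, and in limma's fit of log2(TPM + 1) the difference was -0.75 (standard error 0.40, 95% interval -1.67 to 0.16, limma adjusted p = 0.994). When A549-GFP replicate 2 was left out, the difference in deposited log2 TPM went from -0.78 to -0.36.

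IRS1, the classical docking protein of the insulin receptor, was at 11.1, 20.9 and 7.71 TPM in the A549-GFP libraries and at 12.5, 12.2 and 17.4 TPM in the A549-TIPARP libraries. A549-GFP replicate 2 was the highest and A549-GFP replicate 3 the lowest of all libraries. The difference in log2(TPM + 1) was 0.17 (95% interval -0.61 to 0.95, limma adjusted p = 0.994). With A549-GFP replicate 2 left out it was 0.53 (limma adjusted p = 0.442), and IRS1 was then the 1 member of 10 with an unadjusted p-value under 0.05, a share like the 10.7% of all genes in that fit.

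Within a library, the ratio of the substrates separated the lines. IRS2 stood above IRS1 by a factor of 2.87, 3.10 and 3.04 in the A549-GFP libraries and of 1.26, 1.49 and 1.94 in the A549-TIPARP libraries. The ratio of A549-GFP replicate 2 was close to those of the other A549-GFP libraries although each of its levels was high. On the log2 scale the mean ratio was 1.58 ± 0.06 (SD, n = 3) in A549-GFP cells and 0.62 ± 0.31 (SD, n = 3) in A549-TIPARP cells, a difference of -0.97, or 0.512 of the A549-GFP ratio (exact permutation test, two-sided, p = 0.1, again the smallest this test can give). When libraries were omitted in turn, the difference ran from -1.13 to -0.82, and it was -0.94 without A549-GFP replicate 2. Since the ratio is taken within a library, it does not move with the scaling of libraries. Over the 8 shares and ratios computed, the Benjamini-Hochberg adjusted permutation p-value was 0.2 for the IRS2 to IRS1 ratio and for the shares of IGFBP3, IGFBP5 and IGFBP7 and 0.4 for the INSR to IGF1R ratio.

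**Figure D4:**
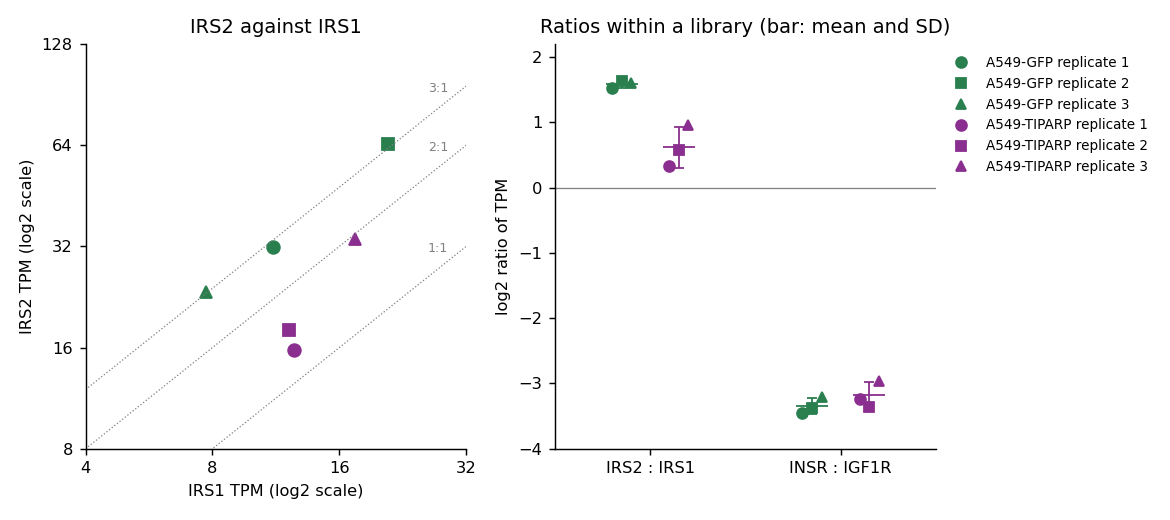
Left, TPM of IRS2 against IRS1 in each library (log2 axes), with dotted lines at ratios of 1, 2 and 3; right, log2 ratios of IRS2 to IRS1 and INSR to IGF1R, with the mean and SD of 3 libraries. The A549-GFP libraries lie along the line of ratio 3 at different levels, and the A549-TIPARP libraries lie between ratios of 1 and 2.

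A549-GFP replicate 2 was the highest of the 6 libraries for 6 of the 10 members, IGFBP3, IGFBP4, IGF1R, INSR, IRS1 and IRS2, beside 52.0% of all genes. Over the mean of the other A549-GFP libraries it was 2.45-fold higher for IGFBP3, 2.37-fold for IRS2, 2.26-fold for IRS1, 1.84-fold for IGFBP4, 1.66-fold for IGF1R and 1.61-fold for INSR. In IGFBP1 it was 6.65-fold higher. In A549-TIPARP cells replicate 3 was the highest library for these 6 genes too, by 1.99-fold over the other libraries for IRS2 and by 1.25-fold for IGF1R. What sets these libraries apart was not tested.

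Of 52 other genes of the pathway in 6 lists, 44 were analysed, 8 were at the floor in all libraries, and none passed an adjusted p-value under 0.05. Of the 44, 2 had an unadjusted p-value under 0.05 with a higher mean in A549-TIPARP cells, HTRA1 and CAV1, and 0 with a lower mean, a share near the 3.85% of all genes. The lines did not overlap for 5 of the 44, beside 8.91% of all genes. In mean 17 were higher and 27 lower, with a median log2 fold change of -0.13, and 0.12 without A549-GFP replicate 2. That library was the highest of the 6 for 29 of the 44.

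HTRA1, a secreted serine protease that cleaves IGF-binding proteins and matrix proteins, was at 17.4, 20.7 and 13.3 TPM in the A549-GFP libraries and at 30.7, 24.7 and 43.3 TPM in the A549-TIPARP libraries. The lowest A549-TIPARP library lay above the highest A549-GFP library. The log2 fold change was 0.93 on the deposited scale, 1.90-fold, and 0.89 on log2(TPM + 1) (95% interval 0.29 to 1.48, limma adjusted p = 0.856). Without A549-GFP replicate 2 it was 1.07 on the deposited scale.

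PAPPA and the stanniocalcins, which are inhibitors of PAPPA, were lower in mean. PAPPA was at 5.55, 26.7 and 5.20 TPM in the A549-GFP libraries and at 3.90, 4.80 and 8.66 TPM in the A549-TIPARP libraries, so that a log2 fold change of -0.75 went to 0.02 once A549-GFP replicate 2 was left out. STC2 was at 16.3, 56.0 and 8.83 TPM and at 10.6, 13.2 and 9.08 TPM in the same order, with log2 fold changes of -0.89 in all libraries and -0.15 when that library was left out. STC1 was lower in every A549-TIPARP library, from 2.57 to 3.29 TPM in A549-GFP cells and from 1.69 to 2.12 TPM in A549-TIPARP cells, with an adjusted limma p-value of 0.994.

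CAV1, a caveolar coat protein that binds INSR and IGF1R, was at 62.5, 52.1 and 44.5 TPM in the A549-GFP libraries and at 80.3, 92.1 and 69.5 TPM in the A549-TIPARP libraries. The lines did not overlap, and the log2 fold change was 0.61 (95% interval 0.15 to 1.05 on log2(TPM + 1), limma adjusted p = 0.966). The other 12 adaptors and inhibitors at the receptor lay within 2-fold with unadjusted p-values above 0.05. With A549-GFP replicate 2 left out, SOCS3, a feedback inhibitor of receptor signaling named here after its values were seen, went from a log2 fold change of 0.66 to 1.14, with an unadjusted p-value under 0.05 (limma adjusted p = 0.213), as 10.7% of all genes had. Among the 12, SHC1 and GRB2, adaptors that lead to RAS, and GRB14, an inhibitor of INSR, had log2 fold changes of 0.03, -0.14 and 0.08. IGF2R, which takes up IGF2 for degradation, had a log2 fold change of 0.15.

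None of the 22 genes from PI3K to mTOR and FOXO had an unadjusted p-value under 0.05, and the log2 fold changes ran within 2-fold, with a median of -0.13 and 0.11 without A549-GFP replicate 2. The most abundant were AKT1, GSK3A and RHEB, with log2 fold changes of 0.01, -0.15 and -0.07. The IGF2 mRNA-binding proteins, fetal RNA-binding proteins that are often re-expressed in tumors, were all present although IGF2 itself was at the floor. IGF2BP1, IGF2BP3 and IGF2BP2 had log2 fold changes of -0.28, 0.26 and 0.39, and IGF2BP2 was the only one of the 3 whose libraries did not overlap.

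**Figure D5:**
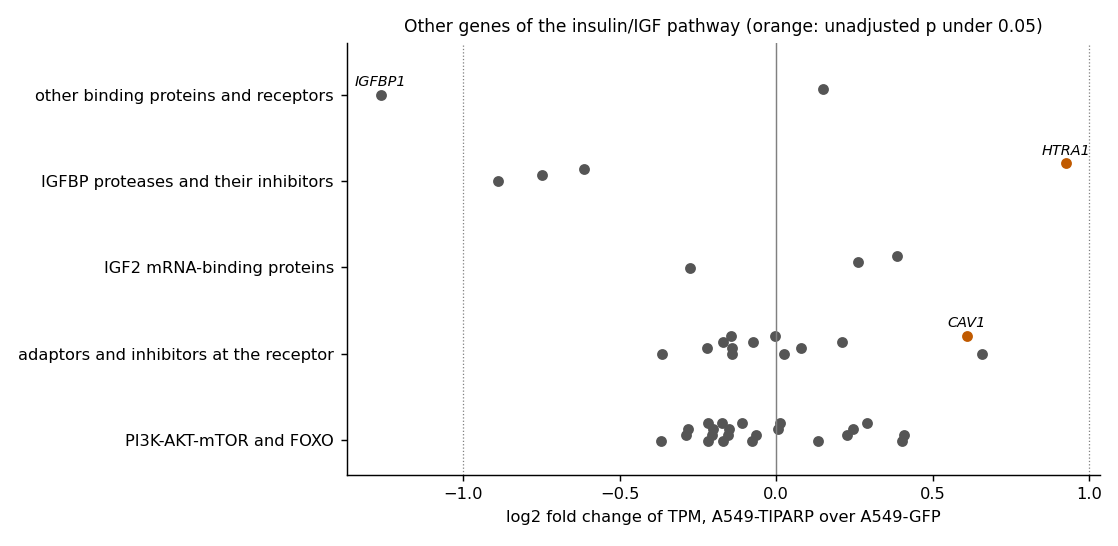
log2 fold change of TPM (A549-TIPARP over A549-GFP) of the 44 analysed pathway genes, 1 point per gene, by list; dotted lines mark 2-fold and orange points have an unadjusted limma p-value under 0.05. HTRA1 and CAV1 are the orange points at 0.93 and 0.61, and IGFBP1 is the point at -1.26.

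With all 6 libraries IGFBP3 had the largest difference of the members well above the floor, but IRS1 (0.58) and IGFBP6 (0.44) had larger ones than IGFBP3 (-0.37) without A549-GFP replicate 2, and IRS2 without A549-GFP replicate 3 (-1.10 against -0.98) or A549-TIPARP replicate 3 (-1.11 against -0.96). The genes most like IGFBP3 over the 6 libraries were CTSL (r = 0.996), DENND1A (r = 0.995) and IL15 (r = 0.992), by Pearson correlation of log2 TPM among 12166 genes above the floor in all libraries. CTSL, the lysosomal protease cathepsin L, was at 229, 500.4 and 229 TPM in the A549-GFP libraries and at 156, 171 and 221 TPM in the A549-TIPARP libraries. Without A549-GFP replicate 2 the correlations over 5 libraries were 0.972, 0.970 and 0.978. These points share libraries, and the correlations are a description.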

How the data were processed

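RNA of 3 A549-GFP and 3 A549-TIPARP libraries was measured by paired-end RNA-seq. The authors used Strand NGS to align reads to the human transcriptome of hg38 and deposited log2 TPM per gene, 1 table per library, with every TPM below 1 set to 1. The software version and the counting rule are not given in the sources used here. Lines and replicate numbers were read from the sample titles.

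Every gene above 2 TPM in 1 or more of the 6 libraries was tested with limma 3.58.1 in R 4.3.3 on log2(TPM + 1), with a variance trend, no block and Benjamini-Hochberg adjustment over all genes. The script was tested on simulated data. Fold changes are differences of mean log2 TPM, or of mean log2(TPM + 1) where that scale is named. Shares and ratios were tested by exact permutation in scipy 1.17.1. Alternatives changed the scale, pseudocount, filter, rescaling, variance model, averaging and libraries, and added a replicate block. The members and lists were chosen with earlier results of these data known. Besides the members, IGFBP1 and TIPARP, the genes named were list genes past 2-fold or with an unadjusted p-value under 0.05, up to 3 more per list by mean TPM, and the 3 genes most correlated with the member of largest change. A leukocyte marker and a pathway gene are not reported here. Positions are from GENCODE 44 and promoters from RefSeq (GRCh38.p14).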

Additional observations from a re-analysis of the deposited data

How the results depend on the processing

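The count of 0 members with an adjusted p-value under 0.05 held in all 15 alternatives. These were the deposited log2 scale, a pseudocount of 0.1, fold changes on log2(TPM + 1), a filter of 2 TPM in 3 or more libraries, no filter, median-ratio rescaling, no variance trend, the replicate block, arithmetic means, and each library left out. Fold changes on log2(TPM + 1) and arithmetic means altered only the fold change and kept the main p-values. Counts by p-value could therefore not change in them. Entries at the floor in all libraries could not be fitted and were left out of the fit without a filter. The lowest adjusted p-value of any member was 0.442. The 1 member with an unadjusted p-value under 0.05, IGFBP3, became 0 without a filter, with rescaling, without a trend and with the replicate block, where the p-value of IGFBP3 lay above 0.05. With each library left out the count ran from 0 to 2: IGFBP3 without A549-GFP replicate 1, IRS1 without replicate 2, IRS2 without replicate 3, none without A549-TIPARP replicate 1, IGFBP7 alone without replicate 2, and IGFBP3 and IRS2 without replicate 3, where 8 members were analysed. The number past 2-fold ran from 0 to 1: IGFBP3 (-1.06) without A549-GFP replicate 1, IRS2 without A549-GFP replicate 3 (-1.10) or A549-TIPARP replicate 3 (-1.11) and IGFBP7 without A549-TIPARP replicate 2. IGFBP7 passed the filter through A549-TIPARP replicate 3, so its counts are no result. The median log2 fold change of the members ran from -0.22 to 0.18 over these fits. Of all genes, 2 had an adjusted p-value under 0.05, but 1 under the replicate block or no filter and from 1 to 19 with a library left out, and 508 had an unadjusted one, but 786 after rescaling and from 242 to 1367 with a library left out. With a library left out the difference in share ran from -13.1 to -7.88 points for IGFBP3 and from 0.746 to 3.59 for IGFBP2. It ran from 2.90 to 6.33 for IGFBP4 and from 2.10 to 6.32 for IGFBP6. On the log2 scale the ratios differed by -1.13 to -0.82 for IRS2 to IRS1 and by 0.05 to 0.24 for INSR to IGF1R. Each kept its direction. For the IGFBP3 share and the IRS2 to IRS1 ratio this was fixed in advance, because their libraries did not overlap. Leaving out a library turned the sign for IGFBP4 (from -0.34 to 0.11 on the log2 scale), IGF1R (-0.31 to 0.10), INSR (-0.20 to 0.24) and IRS1 (-0.14 to 0.58); the cause was not tested.

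The titles number the experiments 1 to 3 in each line. Deviations of same-numbered libraries from the mean of their line correlated with r = 0.415, -0.486 and -0.358. Such deviations sum to 0 within a line, so these values are tied to each other. They cannot decide whether same-numbered libraries were paired. With the replicate block the count of members with an adjusted p-value under 0.05 was also 0. The unknown depth and the floor of 1 TPM limit IGFBP5, IGFBP7 and INSR most.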
